A study of Mus musculus with 12 samples.

Results

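The 86 genes described here encode the proteins of the cytoplasmic ribosome and their close paralogues, apart from a few that GENCODE lists as pseudogenes. They were taken by symbol, as rows named Rpl or Rps with a number and an optional a, x or l ending, together with Rplp0, Rplp1, Rplp2 and Rpsa, out of 27179 genes in the count table. Rows with -ps in the symbol and the Rps6 kinases were left out by that rule. It kept Rpl6l and Rpl32l, processed pseudogenes in GENCODE, and Rps4l, a transcribed processed pseudogene there. The ribosome is built from a small subunit, which reads the messenger RNA, and a large subunit, which joins amino acids, and most of their proteins come from 1 gene each. The messenger RNAs of these genes begin with a run of C and T bases, called a terminal oligopyrimidine tract, through which mTOR signalling adjusts their translation together. Such genes also leave many processed copies in mammalian genomes, and a few of the copies, or duplicated paralogues, are transcribed.

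RNA was sequenced from basal and luminal mammary epithelial cells of female mice, in 4 groups of 3 biological replicates each. Control mice carried floxed Foxp1 alleles, Foxp1(fl/fl), and the others carried the same alleles with the MMTV-cre transgene, whose promoter is active in mammary epithelium and also in salivary gland and some other tissues. Foxp1 encodes a forkhead transcription factor, and the comparison asks what its conditional loss does in each cell type. Ages of the mice are not stated in the labels. Total counts were 9769361 to 11133908 per library and 15449513 in luminal knockout replicate 3. Foxp1 itself did not fall in gene-level counts, which include exons outside a deleted part: its log2 fold against control was 0.22 in basal cells (SE 0.19, adjusted p = 0.926) and 1.07 in luminal cells (SE 0.19, adjusted p = 0.0161), so these libraries are called knockout-labelled. All 7 basal markers were lower and 8 of 9 luminal markers higher in luminal than in basal controls. The 7 fibroblast markers summed to 464, 448 and 574 CPM, counts scaled to library size, in basal controls and 1911, 2705 and 1641 CPM in the basal knockout-labelled libraries, and the salivary transcript Bpifa2 held 0.636 to 6.70% of luminal counts. The part of these transcripts in the results below was not tested.

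Close gene copies show what a read count can and cannot separate in this family. Rps27, a small subunit protein on chromosome 3, has an intronless copy, Rps27rt, on chromosome 9, and a paralogue of its own, Rps27l, also on chromosome 9, which is known as a p53 target. The first 120 coding bases are given with capitals where a base differs from Rps27 (GENCODE vM21 transcripts, GRCm38).
Rps27: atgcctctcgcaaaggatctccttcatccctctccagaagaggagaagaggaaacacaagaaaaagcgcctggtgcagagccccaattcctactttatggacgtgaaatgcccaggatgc
Rps27rt: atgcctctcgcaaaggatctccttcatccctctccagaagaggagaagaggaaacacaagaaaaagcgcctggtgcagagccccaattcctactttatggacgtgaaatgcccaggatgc
Rps27l: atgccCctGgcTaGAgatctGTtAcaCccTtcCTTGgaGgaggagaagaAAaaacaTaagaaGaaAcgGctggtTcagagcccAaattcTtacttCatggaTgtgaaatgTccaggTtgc
Over all 252 coding bases, Rps27rt differed from Rps27 at 0 positions and Rps27l at 60. Rps27 had 1414 counts over the 12 libraries, whereas Rps27rt had 17167 and Rps27l had 7380. A read inside the coding sequence of Rps27 therefore also matches Rps27rt, whereas none of the coding 100-base stretches of Rps27l is found in a gene elsewhere. Of its coding 50-base stretches 72.9% are unique, and since the read length is not stated, how many of its reads also match a copy is not known. Rps6, the small subunit protein phosphorylated downstream of mTOR, is a like case: its count was 3498, against 27363 for Rps6-ps4 on chromosome 2, which matched all 747 coding bases. Rpl37 had 4901 counts against 41500 for Rpl37rt, which differed at 1 of 291 bases, and Rpl34 had 1176 against 10075 for Rpl34-ps1, which differed at 2 of 351. The counts of Rps27, Rps6, Rpl37 and Rpl34 are uncertain for this reason, since the labels do not say how reads matching several genes were counted.

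Per kb of gene length, members spanned a wide range of levels (mean of 12 libraries). Lengths are as deposited and can far exceed the coding sequence, with 5136 bases against 390 for Rps15a and 2019 against 891 for Rpl5. Levels per kb here and below depend on that length. The highest were Rplp1 at 1861 CPM per kb, Rpl32 at 1365 and Rps15 at 1332. Rplp1 is a P protein of the ribosomal stalk, which recruits translation factors, and Rpl32 and Rps15 are core proteins of the large and the small subunit. The lowest were the paralogues Rpl39l at 0.513 CPM per kb and Rpl3l at 0.0899, and Rpl10l with 0 counts in all libraries. Rpl3l is known from striated muscle, and Rpl10l and Rpl39l from testis. These 3 and Rpl39, at 0.871 CPM per kb, did not pass the filter on low counts, and 82 members were tested. Rpl5 and Rpl11, which with 5S RNA bind Mdm2 when ribosome assembly is disturbed, stood at 6.72 and 17.7 CPM per kb.

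The level of a member followed how much of its coding sequence is its own. Among 25 members none of whose coding 100-base stretches was unique in the GENCODE transcripts, the median level was 19.3 CPM per kb, and the range was 6.72 to 119 CPM per kb. Among 29 members with up to 50% unique stretches the median was 160.4 CPM per kb, and among 22 with over 50% it was 583 CPM per kb. Spearman's rho between the unique share and the level per kb was 0.75 over these 76 genes, and 0.54 over 82 when paralogues are added. It is a correlation across genes of the same libraries, which are not independent replicates, and is given as a description. Rpl5, Rpl11, Rps6, Rpl13 and Rps27 are in the group with no unique coding stretch, so their levels cannot be set against those of Rpl32 or Rps15 as amounts of RNA. Over their whole messenger RNAs, from 1.63% (Rps27) to 52.8% (Rpl5) of 100-base stretches are unique. Rpl39 goes against the pattern, with 83.3% unique stretches at 0.871 CPM per kb, but of its coding 50-base stretches only 13.5% are unique. Rpl34 is also low for its class, at 15.4 CPM per kb with 53.2% unique 100-base stretches. Paralogues had low levels beside high uniqueness: Rps27l, at 121 CPM per kb, and Rpl7l1, at 35.97 CPM per kb, had all and 96.2% of their stretches unique.

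**Figure D1:**
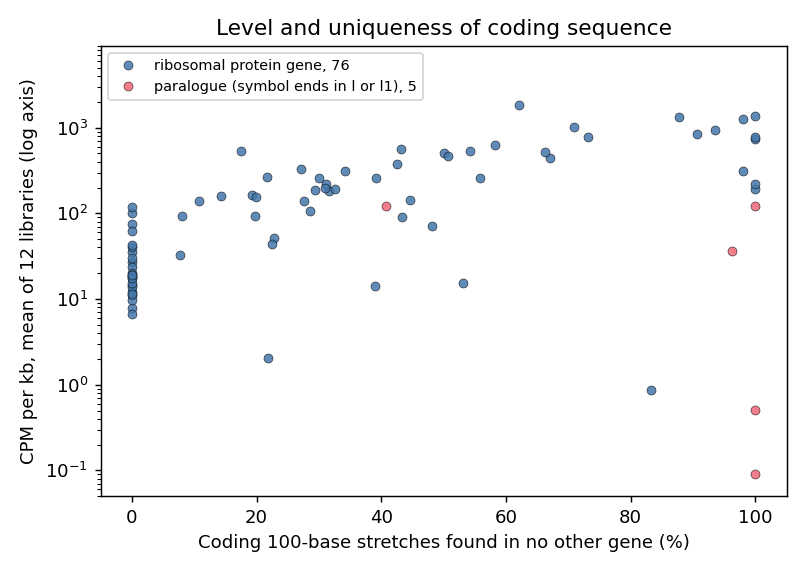
Mean level per kb of gene length over 12 libraries (CPM per kb, log axis) against the percentage of coding 100-base stretches found in no other GENCODE gene, overlapping genes aside, 1 point per gene. The 76 blue points rise from a column at 0%, which spans 6.72 to 119 CPM per kb, to a group near 100%, and the 5 red paralogues with a coding sequence and counts lie below most blue points of like uniqueness.

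Together the 86 genes held 1.37 to 2.46% of the counts of a library. The shares were 1.78, 1.73 and 1.71% in basal controls and 1.61, 1.75 and 1.37% in basal knockout-labelled libraries, in the order of replicates 1, 2 and 3. In luminal cells they were 1.94, 2.46 and 1.59% in controls and 1.72, 1.93 and 1.62% in knockout-labelled libraries. Basal controls were close together at 1.74 ± 0.039% (SD, n = 3), and luminal controls ranged most widely at 1.996 ± 0.435%. Luminal control replicate 2 was the highest library, and it also had the highest share of the ribosomal RNA precursor Rn45s, at 3.68% against 0.0626 to 0.314% in the others. Control and knockout-labelled libraries overlapped in both cell types. The sum over large subunit and stalk genes divided by the sum over small subunit genes was 1.30 to 1.35 in luminal knockout-labelled libraries and 1.20 to 1.27 in luminal controls, with no overlap. In basal cells that ratio was 1.23 to 1.30 in knockout-labelled libraries and 1.23 to 1.24 in controls.

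**Figure D2:**
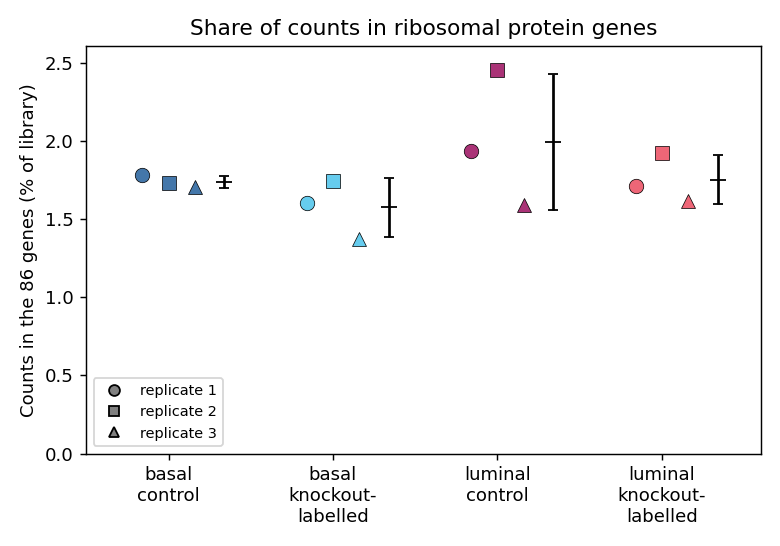
Percentage of each library's counts that fell in the 86 genes, with 1 symbol per replicate number and the mean ± SD of 3 libraries as a bar beside each group. Luminal control replicate 2, at 2.46%, stands above all other libraries, and the other 11 lie between 1.37 and 1.94%.

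Between luminal and basal cells of control mice, 3 members were called at an adjusted p under 0.05 (edgeR quasi-likelihood test over 14903 genes), all higher in luminal cells, and 0 were lower. They are Rpl22l1, Rps27l and Rpl26. That is 3 of 82, where 33.2% of all tested genes were called, 16.3% as higher and 16.8% as lower. The median log2 fold of the 82 was 0.11, beside 0.038 over all tested genes, and 57 of 82 folds were above 0.

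Rps27l (chromosome 9, 66946086 to 66949516) stood at 40.9, 45.6 and 46.3 CPM in basal controls and 63.5, 65.9 and 62.6 CPM in luminal controls. Each luminal control was above each basal control, and the log2 fold was 0.53 (SE 0.17, adjusted p = 0.0311). Rpl22l1 (chromosome 3, 28805436 to 28807424) encodes the paralogue of the large subunit protein Rpl22, which in mice is known to repress it. Basal controls had 56.9, 53.1 and 48.3 CPM of it, and luminal controls had 65.8, 89.5 and 71.1 CPM. The groups did not overlap, luminal control replicate 2 was the highest, and the log2 fold was 0.52 (SE 0.16, adjusted p = 0.0278). Rpl26 (chromosome 11, 68901583 to 68906989), a large subunit protein that in human cells binds p53 messenger RNA, had 270.3, 244 and 230.3 CPM in the basal and 323, 439.8 and 323 CPM in the luminal control libraries. Again luminal control replicate 2 was the highest and the groups were apart, with a log2 change of 0.54 (SE 0.17, adjusted p = 0.0314). Without luminal control replicate 2, and likewise without basal control replicate 1 or 2, 0 members were called. Of all tested genes, 26.8%, 23.1% and 25.2% were called in these fits, in that order. Without basal control replicate 3, 1 member was called (34.1% of all tested genes), and without luminal control replicate 3, 5 were (29%). In a fit of the 2 compared groups alone, 0 members passed, where 26.1% of all tested genes did. Adjusted p there was 0.0800 for Rpl22l1, 0.0925 for Rpl26 and 0.0502 for Rps27l. Rps27l was also not called with library size alone (adjusted p = 0.0624) or without the filter (adjusted p = 0.0546). With replicate number as a block, 9 members were called, where 43.8% of all tested genes were, all higher in luminal cells, among them these 3, Rpl22, Rplp1, Rps21, Rpl19 and Rps18.

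In the knockout-labelled mice, 7 members were called between the cell types, 3 higher and 4 lower in luminal cells, where 40.6% of all tested genes were called, 19.2% as higher and 21.4% as lower. The median log2 fold of the 82 was 0.0072, beside 0.033 over all tested genes. Rps27l was again higher in luminal cells. Its level was 45.4, 46.3 and 30.1 CPM in basal and 79.7, 76.4 and 71.1 CPM in luminal knockout-labelled libraries, and its log2 fold was 0.90 (SE 0.17, adjusted p = 0.00162). The lowest luminal library was above the highest basal one, and Rps27l stayed called without each library in turn. Rpl41 (chromosome 10, 128548114 to 128549305), the shortest ribosomal protein, stood at 355, 360.2 and 322 CPM in basal and 501, 492 and 476 CPM in luminal libraries, with a log2 change of 0.50 (SE 0.16, adjusted p = 0.0305). Rps4l (chromosome 6, 148354656 to 148355598), which GENCODE lists as a transcribed processed pseudogene, stood at 11.7, 14.1 and 7.71 CPM in basal and 15.9, 20.1 and 16.4 CPM in luminal libraries. Its groups were apart too, and its log2 fold was 0.65 (SE 0.24, adjusted p = 0.0476).

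The 4 members lower in luminal knockout-labelled cells were all counted at low levels, and all have close copies elsewhere in the genome. Rpl34 (chromosome 3, 130726831 to 130730398) stood at 12.5, 8.33 and 9.99 CPM in basal and 5.29, 5.10 and 7.14 CPM in luminal libraries, a log2 change of -0.81 (SE 0.24, adjusted p = 0.0174). Rpl13 (chromosome 8, 123102350 to 123105244) stood at 7.50, 7.26 and 8.47 CPM and 4.49, 4.03 and 4.60 CPM, a log2 change of -0.82 (SE 0.25, adjusted p = 0.0224). Both large subunit genes were lower in every luminal library. Rps27 (chromosome 3, 90212522 to 90213651) stood at 12.3, 9.76 and 18.5 CPM in basal and 6.98, 9.66 and 8.07 CPM in luminal libraries, a log2 change of -0.71 (SE 0.25, adjusted p = 0.0389). Basal knockout replicate 3 was the highest and lay well above its fellow replicates. Rpl9 (chromosome 5, 65388364 to 65391444), a large subunit gene, stood at 26.2, 24.5 and 24.3 CPM in basal and 19.6, 18.3 and 17.8 CPM in luminal libraries, a log2 change of -0.43 (SE 0.14, adjusted p = 0.0268). For Rps27 and Rpl34, the copies described above had folds nearer to 0 and were not called: Rps27rt had a log2 change of -0.29 (SE 0.14, adjusted p = 0.128), and Rpl34-ps1 one of -0.15 (SE 0.17, adjusted p = 0.502). The pseudogene Rpl13-ps6, with 316 counts, had a log2 change of 0.16 (SE 0.37, adjusted p = 0.758). No fold is given for a copy of Rpl9.
The number called was 9 without basal knockout replicate 2, where 38.7% of all tested genes were called. Without basal knockout replicate 1 it was 2 (32.2% of all tested genes), and without basal knockout replicate 3 it was 3 (31.3%). Without luminal knockout replicates 1, 2 and 3 it was 1 (33.6%), 2 (31.2%) and 2 (32.7%). With library size alone Rpl13, Rpl9, Rps27 and Rps4l were not called, without the filter Rpl9, Rps27 and Rps4l were not, and in a fit of the 2 compared groups Rpl41, Rpl9, Rps27 and Rps4l were not. Rps4l missed the threshold with RLE factors too (adjusted p = 0.0519), and Rps27 with limma-voom (adjusted p = 0.0535). In the controls the same contrast gave Rpl41 0.23, Rps4l -0.32, Rpl34 -0.021, Rpl13 -0.00093, Rps27 0.091 and Rpl9 -0.23 on the log2 scale, none of them called.

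**Figure D3:**
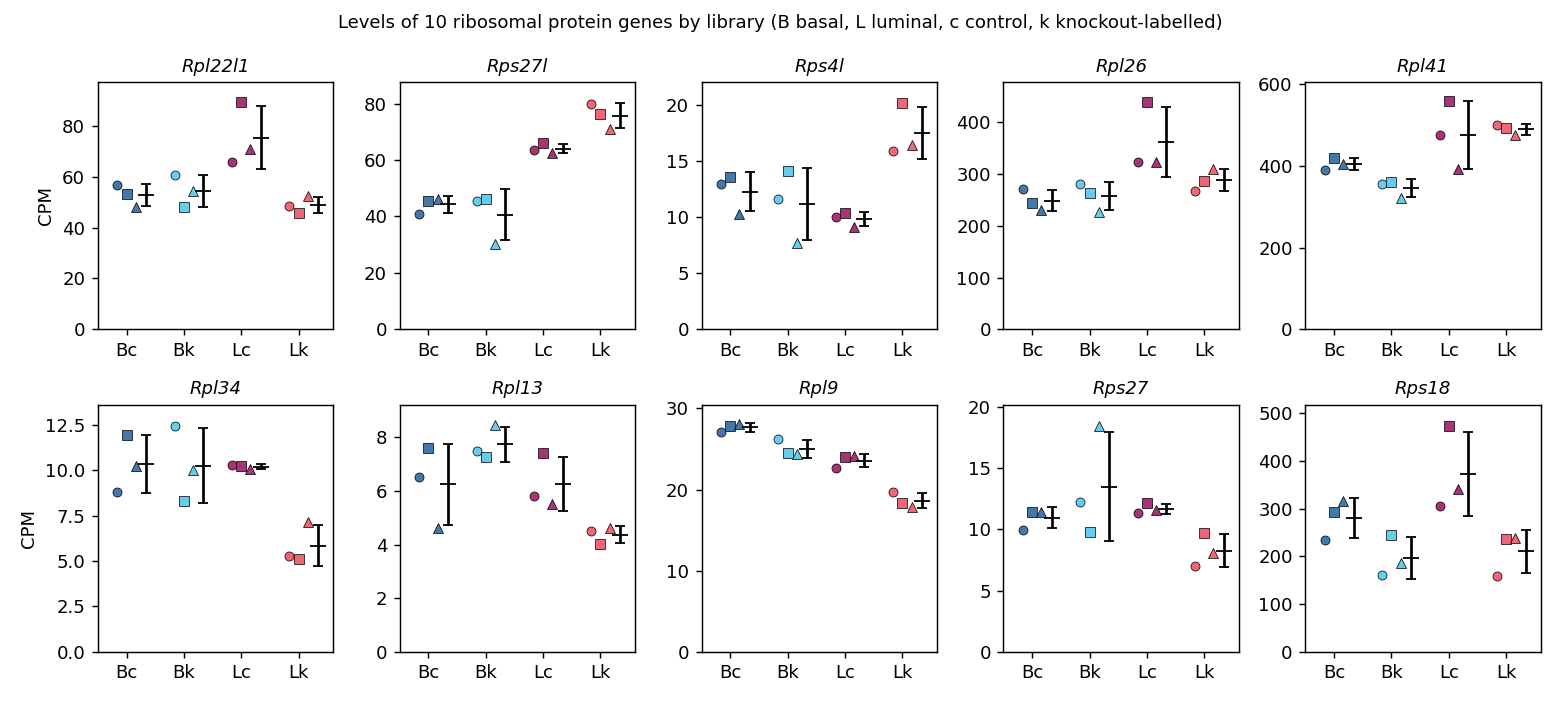
CPM in each of the 12 libraries for 10 members, with circles, squares and triangles for replicates 1, 2 and 3 and the mean ± SD of 3 libraries as a bar. Rps27l is higher in every luminal library (62.6 to 79.7 CPM) than in every basal library (30.1 to 46.3 CPM), and Rps4l is highest in the luminal knockout-labelled libraries (15.9 to 20.1 CPM).

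In basal cells, no member was called between knockout-labelled and control libraries, where 0.671% of all tested genes were called. No member had an unadjusted p under 0.05 either, where 8.88% of all tested genes had one, and the lowest adjusted p was 0.588, for Rps18. The median log2 fold was -0.062, beside -0.0096 over all tested genes, with 23 folds above 0 and 59 below. Groups were apart for 10 members, all lower in the knockout-labelled libraries, and for 0 higher, where 4.21% of all tested genes were apart and lower and 8.15% apart and higher. Rps18 (chromosome 17, 33951999 to 33956001), a small subunit protein at the contact with the large subunit, stood at 234, 292 and 316 CPM in basal controls and 160.0, 245 and 185 CPM in knockout-labelled libraries. Knockout replicate 2 lay inside the range of the controls, and the log2 fold was -0.51 (SE 0.24, adjusted p = 0.588). The other called members of the cell type contrasts had log2 folds between -0.23 (Rpl41) and 0.31 (Rpl13), with Rps27 at 0.30, Rpl9 at -0.15, Rps4l at -0.14, Rps27l at -0.12, Rpl26 at 0.054, Rpl22l1 at 0.044 and Rpl34 at -0.013. DESeq2 called 0 members in basal cells as well, where it called 417 genes, or 2.8% of those tested.

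In luminal cells, no member was called between knockout-labelled and control libraries, where 3.03% of all tested genes were called. An unadjusted p under 0.05 was found for 10 members and for 17.2% of all tested genes. Of these members 1 had a higher and 9 had a lower level. The median log2 fold was -0.19, beside -0.028 over all tested genes, and 67 of 82 folds were below 0. Without luminal control replicate 2 that median was -0.067. Groups were apart and lower in knockout-labelled cells for 21 members, where 12.3% of all tested genes were, and apart and higher for 2, where 13.1% were. With replicate number as a block, 3 members were called, where 7.36% of all tested genes were: Rps18 and Rpl22l1 were lower and Rps4l was higher.

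Rpl22l1 stood at 65.8, 89.5 and 71.1 CPM in luminal controls and 48.4, 45.9 and 52.5 CPM in knockout-labelled libraries. No knockout-labelled library reached a control, and the log2 fold was -0.63 (SE 0.16, adjusted p = 0.0620), with an adjusted p of 0.0415 under the block and 0.00655 in DESeq2. Rps18 stood at 306, 472 and 340.2 CPM in controls and 158, 236 and 237 CPM in knockout-labelled libraries, with replicate 2 the highest control. Its groups were apart, and the log2 fold was -0.82 (SE 0.24, adjusted p = 0.0963), with an adjusted p of 0.0118 under the block and 0.0289 in DESeq2. Rps18 is described because of that call and was chosen after its values were seen. Rps4l stood at 10.01, 10.4 and 9.15 CPM in controls and 15.9, 20.1 and 16.4 CPM in knockout-labelled libraries, with every knockout-labelled library above every control. Its log2 fold was 0.83 (SE 0.24, adjusted p = 0.0892), with an adjusted p of 0.0245 under the block and 0.0172 in DESeq2. DESeq2 called these 3 and Rpl34, where it called 7.31% of all tested genes. Rpl34 stood at 10.3, 10.3 and 10.1 CPM in controls and 5.29, 5.10 and 7.14 CPM in knockout-labelled libraries, with a log2 change of -0.80 (SE 0.23, adjusted p = 0.0960) in edgeR and an adjusted p of 0.0345 in DESeq2. Among the remaining members of the cell type contrasts, log2 folds were -0.51 for Rpl13, -0.50 for Rps27, -0.34 for Rpl9, -0.33 for Rpl26, 0.042 for Rpl41 and 0.24 for Rps27l.

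The stalk proteins Rplp0, Rplp1 and Rplp2, which carry translation factors to the ribosome, did not pass the test in luminal cells. Rplp0 stood at 1399, 1271 and 886 CPM in luminal controls and 1167, 1126 and 927 CPM in knockout-labelled libraries, and the groups overlapped, with a log2 change of -0.14 (SE 0.24, adjusted p = 0.821). The log2 folds of Rplp1 and Rplp2 were -0.25 and -0.14. Rpsa, also known as the laminin receptor, stood at 301, 365 and 219 CPM and 268, 275 and 249 CPM, a log2 change of -0.16 (SE 0.22, adjusted p = 0.765). Rps14 and Rps19, small subunit genes known from 5q- syndrome and from Diamond-Blackfan anaemia in humans, had log2 folds of -0.36 and -0.36. For Rps6, Rpl5 and Rpl11 they were 0.052, -0.23 and -0.089. The lowest adjusted p of these 9 was 0.318 in edgeR, for Rps19. For Rpl32 and Rps15, of the highest level per kb beside Rplp1, log2 folds were -0.13 and -0.17.

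The knockout effect itself was compared between the cell types with an interaction term. No member was called, where 0.275% of all tested genes were called, and 5 members had an unadjusted p under 0.05, which 9.84% of all tested genes had. DESeq2 also called 0 members, among 356 genes called in all. The largest of these 5 was for Rps4l, whose luminal minus basal effect was 0.96 (SE 0.34, adjusted p = 0.316). For Rpl22l1 it was -0.67 (SE 0.23, adjusted p = 0.295), the lowest adjusted p of any member. Rpl13, Rpl34 and Rps27 had differences of -0.82, -0.79 and -0.80 (log2), with adjusted p of 0.475, 0.454 and 0.481. The calls for Rps4l, Rpl13, Rpl34 and Rps27 between cell types in knockout-labelled mice, and not in controls, are therefore not shown to depend on genotype. The other differences were 0.37 for Rps27l, 0.27 for Rpl41, -0.38 for Rpl26, -0.20 for Rpl9 and -0.31 for Rps18.

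**Figure D4:**
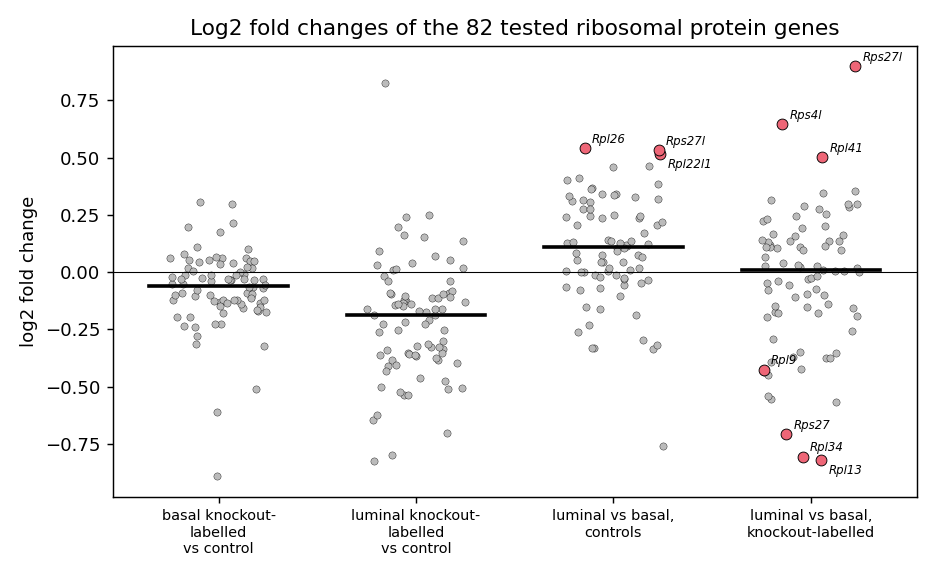
Log2 fold change of each of the 82 tested members in 4 comparisons, with members called at an adjusted p under 0.05 in red and named, other members in grey, and the median of the 82 as a black line. The median is -0.19 in luminal knockout-labelled against control cells and 0.11 in luminal against basal controls, and no member is called in either knockout comparison.

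The 7 paralogue pairs were followed, because a paralogue can take the place of its partner in the ribosome. Rpl22 stood at 467, 589 and 419 CPM in luminal controls and 381, 391 and 382 CPM in luminal knockout-labelled libraries, a log2 change of -0.35 (SE 0.17, adjusted p = 0.320). Rpl22 and Rpl22l1 thus had folds of the same sign there, and neither was called. Rps4x, the X-linked partner of Rps4l, stood at 261, 245 and 187 CPM and 226, 209 and 209 CPM, a log2 change of -0.10 (SE 0.17, adjusted p = 0.815), and Rps4l differs from it at 161 of 789 coding bases. Rpl7l1, which in human cells has a role in ribosome assembly, had 95.3, 86.2 and 145 CPM in basal controls, the last being the highest of 12 libraries, and 82.2, 86.6 and 91.1 CPM in luminal controls. Log2 folds in luminal knockout-labelled cells were -0.15 for Rpl7l1, -0.14 for Rpl7, -0.52 for Rpl3 and -0.34 for Rpl10, none called. Rpl3l had 18 counts and Rpl39l had 54 over all libraries.

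Most members varied together from library to library. For each member, the deviation of its log2 CPM from the group mean was correlated with the mean deviation of the other members over 12 libraries, which share depth and scaling. The median r was 0.65, 57 of 82 members had r above 0.5 and 7 had r below 0. No such r was computed for other genes. The biological coefficient of variation had a median of 18.0% over the members and 26.6% over all tested genes, which were not matched to the members for count level. Rpl6l was low in a single library. The gene, a processed pseudogene in GENCODE, had 53.6, 45.6 and 9.24 CPM in basal controls and 41.2 to 53.8 CPM in the other 9 libraries. Rpl35a, a large subunit gene, varied within every group, with 54.6, 63.2 and 29.3 CPM in basal controls and 48.02, 66.3 and 51.7 CPM in basal knockout-labelled libraries. In luminal cells it had 79.2, 79.3 and 35.9 CPM in controls and 41.8, 69.1 and 37.97 CPM in knockout-labelled libraries.

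Promoter entries were found for 64 of the 86 members (RefSeq, GRCm38.p6). They are given for the members called between the cell types that have an entry, and for Rps18, which was called between luminal groups with the replicate block and by DESeq2 but not in the edgeR fit without the block. Each is shown from 40 bases before to 20 bases after the annotated start, 5′ to 3′, with the longest run of C and T, or each run of that length, in capitals.
Rps27l: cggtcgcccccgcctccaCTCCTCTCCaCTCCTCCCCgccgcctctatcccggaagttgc
Rpl22l1: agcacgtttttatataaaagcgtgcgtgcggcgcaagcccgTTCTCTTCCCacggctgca
Rpl26: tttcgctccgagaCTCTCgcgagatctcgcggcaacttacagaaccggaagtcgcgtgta
Rpl41: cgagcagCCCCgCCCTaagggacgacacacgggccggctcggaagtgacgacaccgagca
Rpl34: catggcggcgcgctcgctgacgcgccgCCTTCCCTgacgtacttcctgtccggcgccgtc
Rpl13: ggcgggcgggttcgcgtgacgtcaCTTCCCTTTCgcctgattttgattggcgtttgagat
Rpl9: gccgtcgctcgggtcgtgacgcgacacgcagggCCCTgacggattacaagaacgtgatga
Rps27: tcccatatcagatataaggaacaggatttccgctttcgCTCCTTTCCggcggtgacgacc
Rps18: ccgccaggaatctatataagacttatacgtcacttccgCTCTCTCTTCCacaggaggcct
In Rps27 and Rps18 the run spans the annotated start, as in a terminal oligopyrimidine tract. In Rpl22l1 the run begins 1 base after the annotated start, and the base at that start is a G. Rps27l has 2 runs of 9 bases, the nearer of which ends 4 bases before the start. The longest run ends 6 bases before it in Rpl34 and 7 bases before it in Rpl13. No run is longer than 5 bases in Rpl26, or than 4 bases in Rpl41 and Rpl9. A run of at least 8 C or T bases overlapping the window from 10 bases before to 20 bases after the start was found in 29 of 64 members (45.3%) and in 16.7% of 26961 other promoters. The ETS motif CCGGAAG, searched on both strands of the 300 bases, was found in 25 of 64 (39.1%) and in 9.01% of the others. The E box CACGTG was found in 5 of 64 (7.81%) and in 7.09% of the others. The forkhead letters GTAAACA were found in 1 of 64 (1.56%), Rpl41, and in 3.59% of the others, and TATAAA was found in 7 of 64 (10.9%), Rpl22l1 among them, and in 14.1%. For a member with several entries the one nearest the GENCODE start was used, and for other symbols the one lowest in genomic coordinate. The shares of members and others are therefore not of promoters chosen alike. These are matches of letters and do not say which factor binds.

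Lists of genes that make or control ribosomes were counted in the same fit, and no list was tested against the ribosomal proteins. Of all tested genes, 16.3% were higher and 16.8% lower in luminal than in basal controls, and 19.2% were higher and 21.4% lower in the knockout-labelled mice. Of 55 ribosome biogenesis factors, 18 were lower and 0 higher in luminal than in basal controls, and 24 were lower and 0 higher in the knockout-labelled mice. Nop58, a core protein of box C/D ribonucleoproteins that guide methylation of ribosomal RNA, averaged 659 CPM in basal and 219 CPM in luminal control libraries, and its log2 change was -1.59 (SE 0.26, adjusted p = 0.000674). Of 77 tested mitochondrial ribosomal protein genes, 15 were higher and 1 was lower in luminal controls, a share higher that is near that of all genes, and 27 were higher and 1 lower in luminal knockout-labelled cells. Mrpl14 was higher by 1.77 on the log2 scale (SE 0.30, adjusted p = 0.000960), and Mrps6 was the 1 lower gene in both, at -0.99 in controls. Of 27 translation factors and other genes with a terminal oligopyrimidine tract, 1 was higher and 2 were lower in controls, and 1 was higher and 4 were lower in knockout-labelled mice. The nucleolar chaperone Npm1 was among those lower in controls, at -0.60 (SE 0.18, adjusted p = 0.0257). Of 15 sensors of ribosomal protein balance, 1 was higher and 4 were lower in luminal controls, among them Cdkn1a at -1.64 and Mdm2 at -0.92 (log2), and 1 was higher and 9 were lower in knockout-labelled mice. Of 27 genes of growth control, 4 were higher and 3 lower in controls, and 5 were higher and 3 lower in knockout-labelled mice. Between knockout-labelled and control libraries, 0 genes of these lists passed the test in basal cells, where 0.671% of all tested genes did. In luminal cells 1 did, where 3.03% of all tested genes did. It was the growth control gene Mycl, a Myc family member, higher by 1.86 on the log2 scale (SE 0.39, adjusted p = 0.0261).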

How the data were processed

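Total RNA of the 12 samples went into TruSeq RNA v2 libraries for an Illumina HiSeq, per the labels' protocols. The submitters' processing notes name CASAVA 1.8.2, featureCounts and mm10. Aligner, annotation, read length, strand setting and the treatment of reads matching several genes are not stated there. What the authors deposited is raw counts per Entrez gene without normalization by the authors, with a gene length in bases beside them, and 0 values differed between the series table and the 12 tables per library. Nothing says whether replicates came from pooled animals.

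The test was edgeR 4.0.16 under R 4.3.3 (quasi-likelihood F test, robust, TMM factors, default expression filter by group). The model had 4 group means over all 12 libraries, leaving 8 residual degrees of freedom. Adjusted p-values are Benjamini-Hochberg values over 14903 tested genes, called under 0.05, and standard errors are the log2 fold divided by the square root of F. CPM use TMM-scaled library sizes, and CPM per kb divide by the deposited length. Groups are apart where no library of one reaches the range of the other. Uniqueness was the share of exact coding 100-base stretches, on either strand, absent from GENCODE vM21 transcripts of other genes. Genes whose span overlaps that of the member were not counted as other genes. With 50-base stretches Spearman's rho was 0.69 in place of 0.75. The fit was tested on simulated data.

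Replicate numbers are shared between groups. Deviations from group means of same-numbered libraries correlated at 0.36, 0.30 and 0.53 between the luminal groups and at 0.31, 0.42 and 0.47 between the control groups, so the numbers were taken to pair these, and the block is printed there where it moved a count. Replicates of a group never agreed within sampling noise. Alternatives were other scalings, no filter, DESeq2 1.42.0, limma-voom (limma 3.58.1), fewer groups, the block and leaving out each library. The members, the gene lists and the rule for named genes were chosen with earlier results of these data known. The rule took, per comparison, called members of largest fold, the stalk genes, Rpsa, Rps6, Rpl5, Rpl11, Rps14, Rps19, the paralogue pairs, the 3 highest and 3 lowest per kb, and up to 4 called genes per other list, of which only those the text turns on are printed. Folds of single members are given where printed above. Since the treatment of reads matching several genes is not stated, counts of members without unique coding sequence are uncertain.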

Additional observations from a re-analysis of the deposited data

How the results depend on the processing

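The counts of 0 called members held in basal cells, and in the difference of effects, under every alternative run. In luminal knockout-labelled against control cells, DESeq2 called 4 members (7.31% of all tested genes) and the replicate block 3 (7.36%), and every other alternative 0. Between cell types in controls, the block gave 9 (43.8% of all tested genes) and a fit of the compared groups alone gave 0 (26.1%). Leaving out each library gave 0 to 5 there, where 23.1 to 34.1% of all tested genes were called. Between cell types in knockout-labelled mice, same-number correlations were 0.09, 0.42 and 0.42, and the highest different-number one was 0.017. Replicate numbers were not taken to pair these libraries. There the block gave 7, where 51.2% of all tested genes were called. Library size alone gave 3 (39.4%), no filter on low counts gave 4 (28%), and a fit of the compared groups alone gave 3 (40.6%). Leaving out each library gave 1 to 9, where 31.2 to 38.7% of all tested genes were called. A fit with fewer libraries or fewer groups also has fewer residual degrees of freedom. Why the counts moved was not tested for any setting. Of 67 single folds, 14 changed sign under some setting and none of these was a called one. With library size alone the basal knockout folds of Rpl22l1 and Rpl26 were -0.036 and -0.015 (log2), and luminal against basal control folds were 0.046 for Rpl13 and 0.0080 for Rpl34. Rpl13 in controls was also 0.0045 without a filter, 0.019 with limma-voom and 0.0033 with the block. Leaving out each library gave, in basal knockout-labelled cells, -0.056 to 0.13 for Rpl22l1, -0.027 to 0.14 for Rpl26, -0.19 to 0.12 for Rpl34, -0.23 to 0.049 for Rps27l and -0.34 to 0.069 for Rps4l. In luminal knockout-labelled cells it gave -0.057 to 0.17 for Rpl41, -0.30 to 0.013 for Rplp0, -0.22 to 0.013 for Rps4x, -0.0082 to 0.13 for Rps6 and -0.31 to 0.018 for Rpsa. Between cell types it gave -0.18 to 0.16 for Rpl13, -0.16 to 0.097 for Rpl34 and -0.012 to 0.13 for Rps27 in controls, and -0.035 to 0.28 for Rps18 in knockout-labelled mice. The members' median fold between cell types in controls was 0.0029 without luminal control replicate 2. Shares of counts moved by less than 1 SD without Rn45s and salivary transcripts. With 3 libraries a group, folds of members with few counts carry wide standard errors, which limits what can be detected there. In luminal knockout-labelled against control cells these were 0.20 for Rpl11, 0.29 for Rpl38 and 0.44 for Rpl29.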
